A study of Mus musculus with 35 samples.

Results

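The neurotrophin family and its receptors were followed as 6 genes, Bdnf, Ntf3, Ntf5, Ntrk2, Ntrk3 and Ngfr. They were chosen by name for their role, with earlier results of these data known, and matched to their Ensembl identifiers among the 52636 genes counted. RNA of the basolateral amygdala of female mice, cut out by laser capture as an anterior and a posterior portion, was sequenced in 35 libraries of 19 mice. The mice were of the inbred strain C57BL/6J (8 mice) or the hybrid B6D2F1N (11 mice), and from postnatal day 77 they had either standard housing with a mock treatment or enriched housing, a playground for 1 h per day. All of the mice, controls included, were food-restricted and trained from postnatal day 70 for 37 to 90 days in a test of cognitive judgment bias, and they shared cages in groups that the labels do not name. The anterior libraries came from 4 standard and 2 enriched C57BL/6J mice and from 5 standard and 5 enriched B6D2F1N mice. The posterior libraries came from 4, 4, 5 and 6 mice in the same order, and 16 mice gave both portions.

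Neurotrophins are secreted growth factors that neurons release, partly in response to activity, and that keep neurons alive, guide their branches and strengthen synapses. Each binds a preferred Trk receptor, a tyrosine kinase that signals through adaptor proteins to the Ras and ERK, PI3K and phospholipase C pathways, while p75NTR, the product of Ngfr, binds all of them and is preferred by their uncleaved precursors. In the amygdala BDNF and its receptor TrkB are known for their part in the learning of fear and reward.

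Of the ligands, Bdnf encodes BDNF, the ligand of TrkB, on chr2:109674700-109727007 (plus strand, GRCm38). Ntf3 encodes neurotrophin 3, the ligand of TrkC, on chr6:126101412-126166910 (minus strand). Ntf5 encodes the mouse neurotrophin 4/5, a further TrkB ligand, on chr7:45413695-45417179 (plus strand). Of the receptors, Ntrk2 encodes TrkB on chr13:58806569-59133970 (plus strand), Ntrk3 encodes TrkC on chr7:78175959-78738012 (minus strand), and Ngfr lies on chr11:95568818-95587735 (minus strand). All 6 are annotated as protein-coding, and a count covers every transcript of a gene, so that the full-length and truncated forms of TrkB and TrkC were counted together. Bdnf shares 14.4% of its exon bases with the antisense gene Gm45346, which had a mean of 1.94 counts per library, and the strand setting of the counting is not given in the sources used here.

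Bdnf starts from several promoters, and RefSeq gave windows of 250 bases before to 50 bases after the start site (GRCm38.p6) for 4 of the 6 genes, with 7 windows for Bdnf, 2 for Ntf3 and 1 each for Ntrk2 and Ngfr. The 2 windows below are shown because Bdnf (in both strains) and Ntf3 (in C57BL/6J) are the members past the threshold between the portions, and of the windows of each gene the one holding a searched motif in full was taken. In the Bdnf window, at chr2:109692186-109692485 on the plus strand, the capitals mark TCACGTCA, a variant of the cyclic AMP response element through which calcium-activated CREB is known to act on Bdnf. In the Ntf3 window, at chr6:126166695-126166994 on the minus strand, the capitals mark CACGTG, an E-box, a motif of helix-loop-helix factors.

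Bdnf promoter 3: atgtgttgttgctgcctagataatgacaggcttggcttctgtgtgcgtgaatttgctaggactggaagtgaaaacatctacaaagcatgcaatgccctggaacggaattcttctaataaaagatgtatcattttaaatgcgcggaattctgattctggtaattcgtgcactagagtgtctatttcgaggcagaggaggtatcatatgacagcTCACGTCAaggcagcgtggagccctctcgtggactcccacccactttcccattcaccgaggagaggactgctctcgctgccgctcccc
Ntf3 promoter 1: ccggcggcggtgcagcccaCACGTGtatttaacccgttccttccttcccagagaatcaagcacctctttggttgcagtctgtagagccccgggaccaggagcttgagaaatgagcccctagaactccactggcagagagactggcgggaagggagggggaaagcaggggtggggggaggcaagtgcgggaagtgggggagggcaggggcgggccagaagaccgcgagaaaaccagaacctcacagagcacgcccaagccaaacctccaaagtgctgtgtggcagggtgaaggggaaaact

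Both strands were searched for TGACGTCA, TCACGTCA, TGACG and CACGTG in all 32851 promoter windows. TCACGTCA was in 0.441% of them, and its only match among the 11 windows of the members, 38 bases before the start site, includes a match to TGACG on the other strand, the core that 20.8% of all windows hold. The full element TGACGTCA, in 1.79% of all windows, was in none of the 11. CACGTG, in 7.15% of all windows, had its only match among the 11 in the Ntf3 window, 231 bases before the start site. These matches describe the letters of the windows, and no binding was measured.

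Levels are given as CPM, the counts per 1000000 gene counts of a library scaled by TMM factors, means are with the SD over mice, and log2 fold changes come from edgeR's quasi-likelihood fit of all genes, with the standard error (SE) derived from its F statistic and Benjamini-Hochberg adjustment of the p-values. Libraries held between 16938534 and 27352623 gene counts, so that 0 counts allow a level of up to 0.1097 to 0.1771 CPM (3 counts, without molecular identifiers and for counting error alone). The libraries of the B6D2F1N standard mouse 1 had 0 counts of Xist in both portions, where each of the others had at least 1191. The labels call all the mice female. Summed counts of 4 genes on the Y chromosome were 0 in both libraries of this mouse and at most 1 in any library. The cause of the missing Xist counts was not tested. On the first principal component of 16022 genes, which carried 16.5% of the variance, all posterior libraries lay below all anterior ones. However, the anterior libraries of the B6D2F1N standard mouse 3 and the B6D2F1N enriched mouse 1 had 33.5 and 33.1 CPM of Rspo2, an excitatory neuron marker. The other 14 anterior libraries had 119 to 310 CPM. The posterior libraries had 0.0427 to 54.2 CPM of Rspo2 (median 18.6), a range that holds these 2 anterior values. The posterior libraries of the B6D2F1N enriched mice 1 and 3 held 13456 and 13689 CPM of Ttr, a transcript of the choroid plexus, against at most 4413 CPM in the others. Values without these mice are given for some of the results that include them. In these bulk samples, fewer cells of a type and less RNA per cell cannot be told apart.

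Per kilobase of exon, the TrkB and BDNF transcripts were the most abundant of the family. Ntrk2 had 35.0 ± 6.94 and Bdnf 24.5 ± 19.9 CPM per kb (n = 35), and their ranges, 23.4 to 54.9 and 4.43 to 77.6, overlapped. Their order differed by portion, with 33.7 ± 5.6 for Ntrk2 and 41.7 ± 17.4 for Bdnf in the anterior (n = 16), and 36.2 ± 7.86 and 9.99 ± 3.6 in the posterior libraries (n = 19). Ntrk3 followed with 6.39 ± 1.69 and Ntf3 with 3.97 ± 3.97 CPM per kb, neighbours whose ranges overlapped too (3.53 to 11.7 and 0.619 to 17.4). Ngfr had 0.705 ± 0.519 CPM per kb. Ntf5 lay at 0.0691 ± 0.14 CPM per kb, with 0 counts in 19 of the 35 libraries. Lengths were those of all annotated exons joined. With the length of the longest transcript in their place, the means were 77.3 for Ntrk2, 35.7 for Bdnf, 9.77 for Ntrk3 and 4.59 for Ntf3, in the same order, and in the anterior libraries Ntrk2 (74.3) then lay above Bdnf (60.7).

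**Figure D1:**
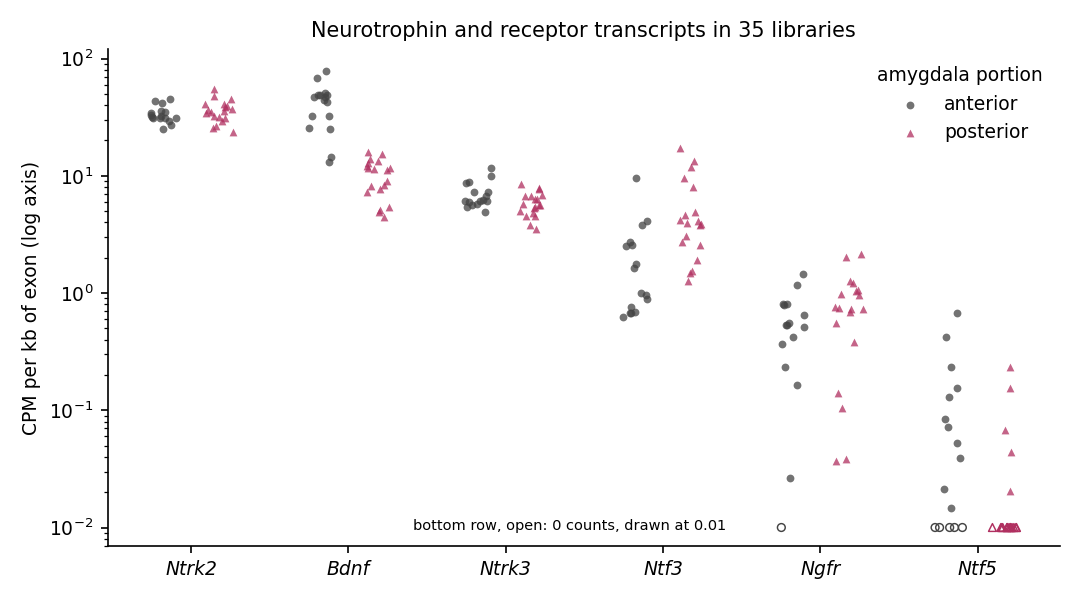
Level of the 6 member genes in the 35 libraries, as CPM per kb of exon on a log axis, with anterior libraries as circles and posterior libraries as triangles, and open symbols at the bottom for libraries with 0 counts. Ntrk2 ranges from 23.4 to 54.9 and Ntrk3 from 3.53 to 11.7 CPM per kb, Bdnf splits by portion, and Ntf5 is at 0 in 19 libraries.

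The comparison of the portions asked whether the anterior and posterior amygdala differ within a mouse. Bdnf was lower in the posterior portion in all 16 mice that gave both libraries. In C57BL/6J, the anterior levels were 273, 291, 267 and 482 CPM in the standard mice and 201 and 200 CPM in the enriched mice, and the posterior levels were 74.4, 94.7, 51.1 and 70.3 CPM in the standard mice and 87.2, 82.8, 71.8 and 31.5 CPM in the enriched mice. No posterior library reached the lowest anterior one, and how many of all genes separate the portions in this way was not counted. The mean fell from 286 ± 104 CPM (n = 6) to 70.5 ± 20.5 CPM (n = 8), and the log2 fold change over the 6 paired mice was -1.89 (SE 0.195, adjusted p = 1.29e-05).

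In B6D2F1N, the anterior levels of Bdnf were 291, 314, 81.7, 307 and 301 CPM in the standard mice and 91.0, 160, 157, 424 and 303 CPM in the enriched mice. The posterior levels were 99.7, 79.4, 52.1, 27.6 and 30.6 CPM in the standard mice and 33.4, 72.8, 55.9, 45.6, 72.5 and 47.5 CPM in the enriched mice. The groups overlapped only through the 2 anterior libraries low in Rspo2, at 81.7 and 91.0 CPM, and each of these still exceeded the posterior library of its own mouse. The mean was 243 ± 113 CPM (n = 10) against 56.1 ± 22.7 CPM (n = 11), with a log2 fold change of -2.08 over the 10 paired mice (SE 0.263, adjusted p = 0.000138), and -2.32 without those 2 mice (adjusted p = 0.000123). Without the mouse that had no Xist counts it was -2.13 (adjusted p = 0.000435).

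Within a mouse, the anterior level of Bdnf was 2.31 to 6.86 times the posterior level in C57BL/6J and 1.57 to 11.1 times in B6D2F1N. The difference between the strains in this fold, tested as an interaction over the 16 mice, was -0.20 on the log2 scale (SE 0.37, adjusted p = 1).

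Ntf3 went the other way in C57BL/6J, where it rose from the anterior to the posterior portion in 6 of 6 mice. The anterior levels were 1.19, 4.32, 1.74 and 1.15 CPM in the standard mice and 1.3 and 1.65 CPM in the enriched mice. The posterior levels were 6.65, 7.09, 4.4 and 6.46 CPM in the standard mice and 16.3, 20.3, 6.82 and 7.9 CPM in the enriched mice. The lowest of them, 4.4 CPM, lay close above the highest anterior level, 4.32 CPM. How many of all genes separate the portions in this way was not counted. The mean was 1.89 ± 1.21 CPM (n = 6) against 9.49 ± 5.63 CPM (n = 8), and the log2 fold change was 2.11 (SE 0.454, adjusted p = 0.0106). It stayed at 1.82 or above when each mouse was left out, but the adjusted p rose to 0.0523 without the standard mouse 4 and to 0.0583 without the enriched mouse 1.

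In B6D2F1N, Ntf3 was higher in the posterior portion in 8 of 10 mice, and the difference did not pass the threshold (log2 fold change 0.89, SE 0.609, adjusted p = 0.524). The log2 fold change was 1.45 without both mice highest in Ttr (adjusted p = 0.298), 1.05 without both mice low in Rspo2 (adjusted p = 0.422) and 0.52 to 1.29 with each mouse left out. The standard mice had anterior levels of 4.37, 4.7, 1.15, 2.8 and 1.06 CPM and posterior levels of 13.7, 5.27, 8.37, 22.9 and 29.8 CPM, higher in 5 of 5. Of the enriched mice, numbers 1, 2, 3, 4 and 6 had anterior levels of 16.4, 7.08, 3.02, 6.5 and 1.51 CPM and posterior levels of 2.54, 2.17, 3.28, 7.17 and 2.63 CPM, higher in 3 of 5. The dependence of the portion difference on housing was -3.12 on the log2 scale (SE 0.883) and did not pass the threshold (adjusted p = 1, and 0.148 in DESeq2). Its dependence on strain, -1.22 (SE 0.835, adjusted p = 1), did not pass either.

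**Figure D2:**
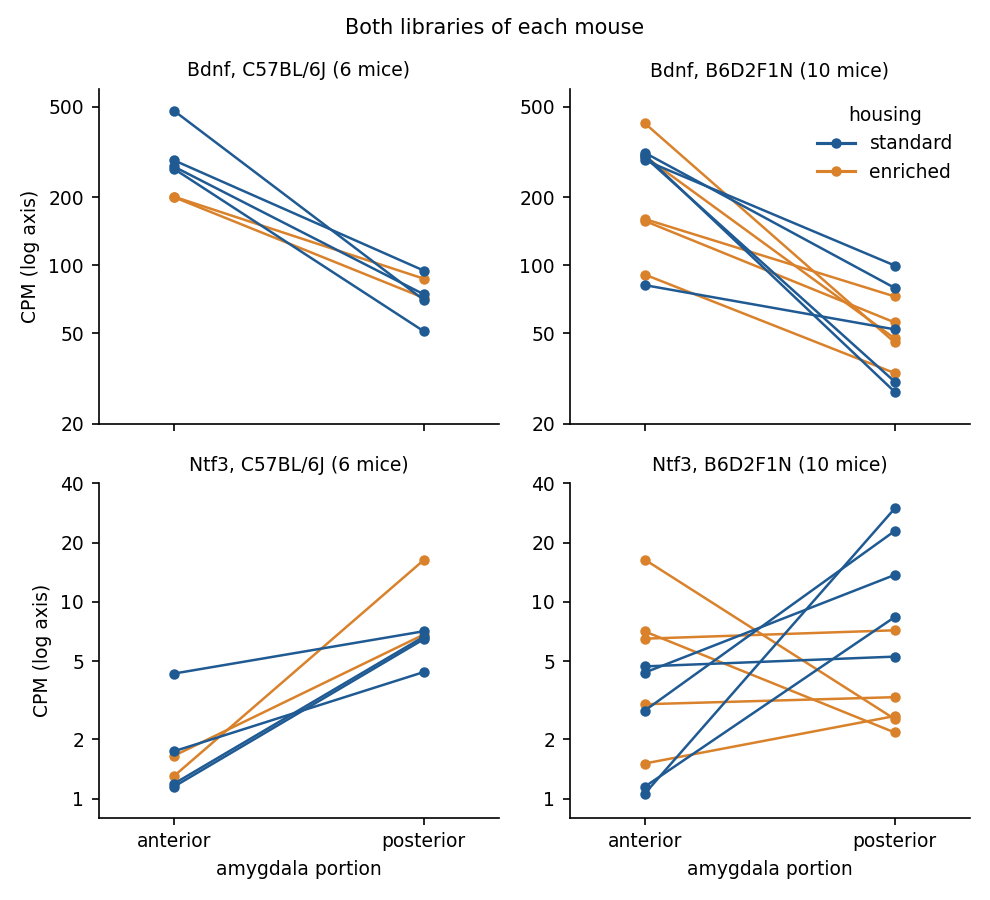
CPM of Bdnf and Ntf3 (log axes) in the anterior and posterior library of each mouse with both, joined by a line, for 6 C57BL/6J and 10 B6D2F1N mice coloured by housing. Every Bdnf line falls, every Ntf3 line of C57BL/6J rises, and 2 of the 5 lines of enriched B6D2F1N mice fall for Ntf3.

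Both calls stood against a background of 937 of 25751 genes past the threshold in C57BL/6J (3.64%) and 1110 of 27761 in B6D2F1N (4%). Of the 6 members, 2 were past it in C57BL/6J and 1 in B6D2F1N. The signs follow the portion names of the labels. The study's methods give the distances from bregma of the portions in the reverse of the anatomical order, and which of them the labels follow was not tested.

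Cell type markers moved with the portions. Of 10 choroid plexus markers, 5 were higher in the posterior portion in C57BL/6J and 9 in B6D2F1N, with summed levels of 471 to 2617 CPM in anterior and 823 to 20957 CPM in posterior libraries. Of 10 excitatory neuron markers, 1 was higher and 4 were lower in the posterior portion of each strain, where Slc17a7, the cortical type of vesicular glutamate transporter, had a median of 203 CPM against 527 CPM, and Slc17a6, the subcortical type, 200 CPM against 71.9 CPM. The summed level of that list was 2145 to 4844 CPM in anterior and 1211 to 5746 CPM in posterior libraries. The summed level of 10 meningeal fibroblast markers was 86.0 to 139 CPM in anterior and 293 to 1826 CPM in posterior libraries of C57BL/6J, with no overlap, and 72.2 to 185 and 70.4 to 1711 CPM in B6D2F1N, where 4 of the 5 standard mice stayed at 70.4 to 127 CPM in the posterior portion. Of its 10 genes, 1 was higher in C57BL/6J, and 1 was higher and 1 lower in B6D2F1N. Of 10 ependymal markers, 2 were higher in C57BL/6J and 6 in B6D2F1N (37.0 to 89.3 against 68.6 to 354 CPM summed). Of 10 astrocyte markers, 4 were higher in C57BL/6J, and 1 was higher and 1 lower in B6D2F1N. Of 10 inhibitory neuron markers, 2 were lower in C57BL/6J and 1 in B6D2F1N. In C57BL/6J, 2 of 10 hippocampal and subicular markers were higher. The 8 cholinergic markers summed to 0 to 49.1 CPM in anterior and 3.22 to 19.3 CPM in posterior libraries. The part of the cell makeup in the differences of Bdnf and Ntf3 was not tested. Of the 12 marker lists, the highest Pearson's r of log2 CPM with Bdnf within the anterior libraries was that of the endothelial and pericyte list (0.812, n = 16), which had 0.401 within the posterior libraries (n = 19). For Ntf3 it was that of the choroid plexus list, with 0.621 and -0.173. The anterior library of the B6D2F1N enriched mouse 1 had both the highest Ttr (886 CPM) and the highest Ntf3 (16.4 CPM) of its portion. Over all 35 libraries, the highest r with Ntf3 was that of the hippocampal and subicular list (0.524), with 0.414 for the choroid plexus list. For Bdnf it was again that of the endothelial and pericyte list (0.716), and the lowest was that of the choroid plexus list (-0.761). These values describe libraries that share mice, depth and dissection.

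The receptors did not pass the threshold between the portions in either strain. Ntrk2 had 650 ± 108 CPM (n = 16) in anterior and 698 ± 152 CPM (n = 19) in posterior libraries, with log2 fold changes of 0.17 (SE 0.164) in C57BL/6J and 0.11 (SE 0.113) in B6D2F1N. Ntrk3 had 212 ± 56.2 CPM against 176 ± 40.6 CPM. It was lower in the posterior portion in 9 of 10 B6D2F1N mice (log2 fold change -0.35, SE 0.127, adjusted p = 0.156) and in 3 of 6 C57BL/6J mice (-0.06, SE 0.164). Ngfr had 1.94 ± 1.34 CPM against 2.84 ± 2.04 CPM, with SEs of 0.568 and 0.991 around log2 fold changes of 0.43 and 0.64. Its counts were 0 to 151 in a library, with a median of 48. Ntf5 never exceeded 39 counts (1.79 CPM) in a library, and no fold is drawn from it.

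The strain comparison asked what the hybrid background changes at a given housing and portion. None of the 6 members passed the threshold in the 4 comparisons, in which 90 genes (0.37%) passed for the standard anterior, 94 (0.373%) for the standard posterior, 15 (0.0639%) for the enriched anterior and 101 (0.394%) for the enriched posterior portion. Over both housings, with 162 genes past the threshold in the anterior (0.615%) and 239 in the posterior portion (0.858%), none of the members passed either. Bdnf in B6D2F1N lay within 0.35 of C57BL/6J on the log2 scale in each of the 4 comparisons, with SEs of 0.28 to 0.477.

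For Ntf3 the strain estimates had opposite signs in the posterior portion of standard and enriched mice, and none passed the threshold in edgeR. In standard housing the B6D2F1N posterior libraries had 16.0 ± 10.2 CPM (n = 5) and the C57BL/6J libraries 6.15 ± 1.2 CPM (n = 4), a log2 fold change of 1.39 (SE 0.443, adjusted p = 0.363). In enriched housing they had 3.74 ± 1.89 CPM (n = 6) and 12.8 ± 6.54 CPM (n = 4), a log2 fold change of -1.77 (SE 0.432, adjusted p = 0.132). DESeq2 gave an adjusted p of 0.091 for the first and 0.00737 for the second, and the edgeR settings gave at least 0.0516 for the second, reached without the B6D2F1N enriched mouse 4. Without both mice highest in Ttr, the second log2 fold change was -1.63 (edgeR, adjusted p = 0.378). In both housings the ranges of the strains overlapped, in enriched housing only by the B6D2F1N mouse 4 at 7.17 CPM against the lowest C57BL/6J library at 6.82 CPM. The summed oligodendrocyte list did not overlap between these enriched groups, at 7158 to 16975 CPM in B6D2F1N and 18669.5 to 29331 CPM in C57BL/6J. In standard housing the fibroblast list was at 968 to 1826 CPM in C57BL/6J and at 70.4 to 127 CPM in 4 of the 5 B6D2F1N mice (1711 CPM in mouse 1). None of the genes of either list passed between the strains there, and their part in the Ntf3 values was not tested. In the anterior portion the log2 fold changes were 0.43 (SE 0.645) in standard and 2.25 (SE 0.974) in enriched housing, the latter against 2 C57BL/6J mice. With each mouse left out they were 0.16 to 1.05 and 1.62 to 2.50, the highest of the first without the C57BL/6J standard mouse 2 and the lowest of the second without the B6D2F1N enriched mouse 1.

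The housing comparison asked what the playground changes within a strain and portion. None of the 6 members passed the threshold in the 4 comparisons with edgeR, and few other genes did. No gene passed in the C57BL/6J anterior, B6D2F1N anterior and B6D2F1N posterior comparisons (0%), where 1418, 1553 and 1716 genes had an unadjusted p under 0.05 and DESeq2 called 100, 8 and 13. In the C57BL/6J posterior comparison 4 genes passed (0.0163%). Pooled over the strains, 0 genes passed in either portion (0%), with 1665 anterior and 2371 posterior genes at an unadjusted p under 0.05 and 70 and 2 calls in DESeq2.

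In the posterior portion of B6D2F1N, Ntf3 had 16.0 ± 10.2 CPM in standard (n = 5) and 3.74 ± 1.89 CPM in enriched housing (n = 6), and the difference did not pass the threshold in edgeR. The 5 standard mice had 13.7, 5.27, 8.37, 22.9 and 29.8 CPM and the 6 enriched mice 2.54, 2.17, 3.28, 7.17, 4.63 and 2.63 CPM, so that the groups overlapped through 1 standard mouse (5.27 CPM) and 1 enriched mouse (7.17 CPM). The log2 fold change was -2.10 (SE 0.443, adjusted p = 0.752), the fourth smallest p of 26028 genes, and DESeq2 gave an adjusted p of 0.0193. The study, which used DESeq2, also lists Ntf3 as lower in enriched housing in this comparison. Over the other settings of edgeR the adjusted p was 0.42 to 0.962. With each mouse left out the log2 fold change was -2.41 to -1.76 and the lowest adjusted p 0.277. Without the enriched mice 1 and 3, whose libraries were highest in Ttr, it was -1.94 (adjusted p = 0.964), and without the mouse that had no Xist counts -2.16 (adjusted p = 0.277). The 2 standard mice highest in Ntf3, numbers 4 and 5, had the lowest Bdnf levels of their group (27.6 and 30.6 CPM) and 0.128 and 0.132 CPM of Ngfr. Their summed oligodendrocyte lists were also the lowest of their group, at 2460 and 2668 CPM against 8786 to 24292 CPM, and their striatal neuron lists the highest, at 3597 and 2699.5 CPM against 470 to 1764 CPM. The fibroblast list was at 70.4 to 127 CPM in standard mice 2 to 5, 1711 CPM in standard mouse 1 and 458 to 1163 CPM in the enriched mice. None of the 26028 genes passed between these housings in edgeR, so that the lack of a call does not describe these 3 lists. Their part in the Ntf3 values was not tested.

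In the posterior portion of C57BL/6J, Ntf3 had 6.15 ± 1.2 CPM in standard (n = 4) and 12.8 ± 6.54 CPM in enriched housing (n = 4), where 2 mice had 16.3 and 20.3 CPM. The difference did not pass the threshold (log2 fold change 1.06, SE 0.4, adjusted p = 0.443). Oligodendrocyte markers differed between these groups, with summed levels of 8533 to 13352 CPM in standard and 18669.5 to 29331 CPM in enriched housing, and 1 of the 10 passed. Their part in the Ntf3 values was not tested. In this strain, the number in the sample titles also separated the housings, so that housing and whatever that number stands for cannot be told apart.

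The difference between the strains in the posterior housing effect on Ntf3 was -3.15 on the log2 scale (SE 0.644). This interaction had the fifth smallest p of 27871 genes and did not pass the threshold in edgeR (adjusted p = 0.331, and 0.0978 to 0.633 with each mouse left out), while DESeq2 gave 0.00984. Without both mice highest in Ttr it was -3.0 (edgeR, adjusted p = 0.442). In the anterior portion the interaction was 1.81 (SE 1.12, adjusted p = 0.949). The interaction fits called no gene in edgeR. The share was 0% in each of the 4, with 871 genes at an unadjusted p under 0.05 for portion by strain, 1099 for portion by housing, 1576 for strain by housing in the anterior and 2335 in the posterior portion, and DESeq2 called 0, 12, 3 and 15 genes.

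**Figure D3:**
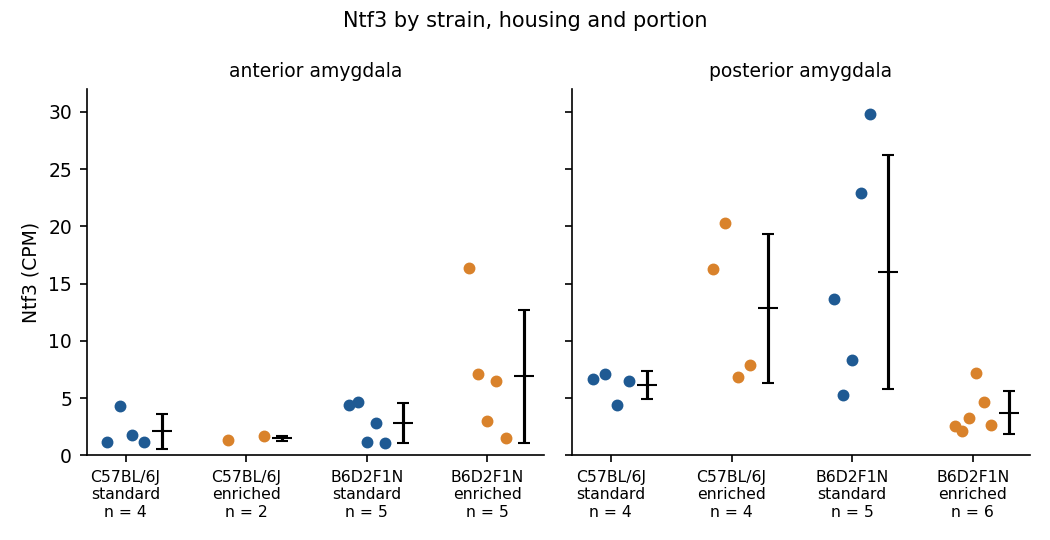
Ntf3 (CPM, linear axis) by strain and housing in the anterior (left) and posterior (right) amygdala, with a point per mouse and the mean and SD as a bar beside the points. In the posterior portion the means are 6.15 and 12.8 CPM for standard and enriched C57BL/6J mice and 16.0 and 3.74 CPM for standard and enriched B6D2F1N mice.

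In the anterior portion of C57BL/6J, the housing groups of Bdnf did not overlap, as for 15.4% of all genes tested there. The 4 standard mice had 267 to 482 CPM and the 2 enriched mice 200 and 201 CPM, a log2 fold change of -0.74 (SE 0.28, adjusted p = 0.789), with 0% of all genes past the threshold there. In the other 3 housing comparisons the log2 fold change of Bdnf was -0.20 to -0.09, with SEs of 0.295 to 0.389.

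Over the 10 comparisons of portion, strain and housing, the log2 fold changes of Ntrk2 were between -0.06 and 0.17 and those of Ntrk3 between -0.35 and 0.12, with SEs of at most 0.284 and 0.322. Those of Ngfr were between -0.43 and 0.64, with SEs of 0.568 to 1.68. The intervals of Ntrk2 and Ntrk3 were narrower than those of Ngfr, which were wide enough to hold changes of several fold. That of Ntrk3 between the strains in the enriched anterior portion still ran from -0.52 to 0.75.

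**Figure D4:**
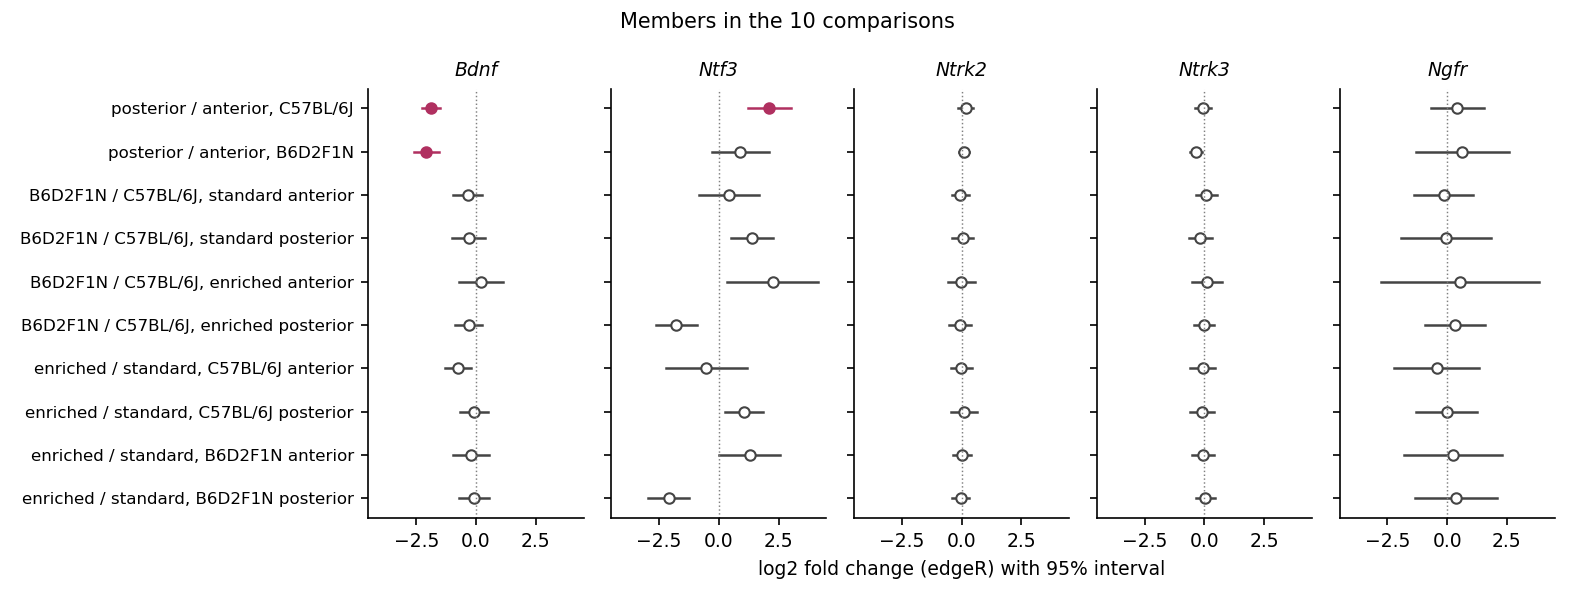
Log2 fold change of 5 members in the 10 comparisons (edgeR), with lines for the normal 95% interval and filled points where the adjusted p was at most 0.05. Bdnf is past the threshold in both strains between the portions and Ntf3 in C57BL/6J, while Ntrk2 and Ntrk3 stay within 0.35 of 0.

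The wider pathway was followed in 5 lists with 95 genes, of proneurotrophin processing and sorting, partners of p75NTR, Trk adaptors, kinases, and genes that respond to activity or neurotrophins. Between the portions, no gene of these lists was higher and 12 of the 94 tested were lower in the posterior portion in C57BL/6J, and none was higher and 14 of 95 were lower in B6D2F1N. Of all genes tested, 2.1% were called lower in C57BL/6J and 2.37% in B6D2F1N. That share is over all genes with at least 10 counts in total and was not matched for expression level. Cell type markers also differed between the portions, and the part of the cell makeup in the pathway differences was not tested. The median log2 fold change over the lists was -0.22 in C57BL/6J and -0.21 in B6D2F1N, against 0.01 and 0.15 over all genes tested. Of the called genes 10 were shared, 83.3% of the C57BL/6J and 71.4% of the B6D2F1N calls. Over all genes the strains shared 497 calls, 53% of those of C57BL/6J and 44.8% of the B6D2F1N calls.

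Of the 18 genes of processing and sorting, Pcsk1 and Pcsk2, convertases that cleave proneuropeptides, and Sorl1 and Sorcs1, sorting receptors of the Vps10p family, were lower in both strains. Sort1, the gene of sortilin, which binds proneurotrophins together with p75NTR, and Serpini1, an inhibitor of the protease tPA, were past the threshold in B6D2F1N (Sort1 log2 fold change -0.87, SE 0.155, adjusted p = 0.00268). The difference between the strains was past the threshold for no gene of the lists, and for none of all 29437 genes tested. Pcsk2 fell from 1180 ± 290 to 401 ± 115 CPM in C57BL/6J (n = 6 and 8) and from 1041 ± 413 to 424 ± 107 CPM in B6D2F1N (n = 10 and 11), with log2 fold changes of -1.42 (SE 0.161) and -1.24 (SE 0.169). The convertase Furin and the tPA gene Plat did not pass.

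Of the 10 partners of p75NTR, Rtn4r and Lingo1, which with p75NTR form the Nogo receptor complex, were lower in the posterior portion of both strains (Rtn4r log2 fold change -1.30, SE 0.2, and -1.36, SE 0.242). Of the 21 Trk adaptors, among them Shc3 and Frs2, none passed in either strain. Of the 26 kinases, Camk4, a calcium-dependent kinase upstream of CREB, was lower in C57BL/6J (-0.84, SE 0.174, adjusted p = 0.00801).

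Of the 20 response genes, 5 were lower in C57BL/6J and 6 in B6D2F1N. Nptx2, a secreted pentraxin that gathers AMPA receptors and follows BDNF and activity, changed most, from 90.4 ± 36.4 to 7.19 ± 3.26 CPM in C57BL/6J and from 58.6 ± 25.5 to 6.36 ± 4.12 CPM in B6D2F1N (log2 fold changes -3.83, SE 0.343, and -3.31, SE 0.37). The neuropeptide gene Npy fell by 1.67 (SE 0.174) and 1.33 (SE 0.244) on the log2 scale. Egr1 and Homer1 were lower in both strains, the ERK phosphatase gene Dusp6 in C57BL/6J, and Vgf and Arc in B6D2F1N. Arc, whose transcript moves to active synapses, had a log2 fold change of -1.97 in C57BL/6J as well, at an adjusted p of 0.0625. Fos and Npas4 did not pass in either strain. With each mouse left out, the calls of Lingo1, Homer1, Dusp6 and Egr1 in C57BL/6J stayed in 2 of 6 fits each, that of Arc in B6D2F1N in 3 of 10 and that of Homer1 in 8 of 10, and the other pathway calls between the portions stayed in all fits.

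**Figure D5:**
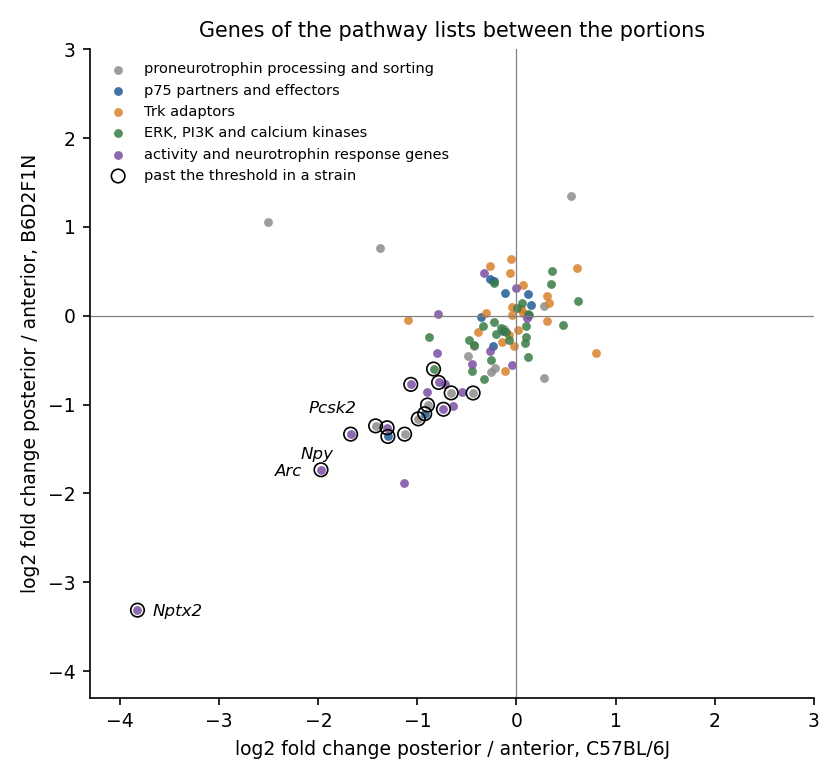
Log2 fold change posterior over anterior of the genes of the 5 pathway lists, in C57BL/6J (horizontal) and B6D2F1N (vertical), coloured by list and ringed where the adjusted p was at most 0.05 in a strain. All ringed genes lie below 0 on both axes, and Nptx2 is farthest at -3.83 and -3.31.

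No pathway gene passed in a housing comparison with edgeR, where at most 4 of all genes passed. DESeq2 called 1 pathway gene in the C57BL/6J anterior and 4 in the C57BL/6J posterior comparison, among 100 and 319 calls over all genes. In the strain comparisons, Ndn, the gene of necdin, which binds p75NTR, was higher in B6D2F1N in the enriched posterior portion (log2 fold change 1.03, SE 0.201, adjusted p = 0.0322). Over both housings it was higher in the posterior portion by 0.94 (SE 0.132, adjusted p = 8.28e-05), at 344 ± 55.5 CPM (n = 11) against 180 ± 25.9 CPM (n = 8). Egr1 was lower in B6D2F1N in the enriched posterior portion (log2 fold change -1.24, SE 0.243, adjusted p = 0.0328). These 2 are 1 higher and 1 lower of 94 genes tested there, beside the background of 0.394%. With each mouse left out, the log2 fold changes stayed at 0.92 to 1.14 for Ndn and -1.39 to -1.09 for Egr1, but the call of Ndn stayed in 1 and that of Egr1 in 2 of 10 fits (highest adjusted p 0.105 and 0.174), whereas the pooled call of Ndn stayed in 19 of 19. Without both mice highest in Ttr, neither passed in the enriched posterior portion. The log2 fold changes were then 1.06 for Ndn (adjusted p = 0.0821) and -1.17 for Egr1 (adjusted p = 0.162).

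Among the members, Pearson's r of log2 CPM over the 35 libraries was 0.66 between Ntrk2 and Ntrk3 and -0.53 between Bdnf and Ntf3, given as a description, since libraries share mice and portions set most of the range of Bdnf. Of 16022 genes with a mean of at least 1 CPM, Vegfd (0.929), Dkk3 (0.916) and Prss23 (0.914) were most like Bdnf. For Ntf3 they were Ust (0.754), Epha4 (0.677) and Arhgef26 (0.676). The nearest to Ntrk2 were Cacna1c (0.764), Sema4b (0.757) and Timp3 (0.757). Those of Ntrk3 were Kidins220 (0.88), whose product binds Trk receptors, Bace1 (0.867) and Cacna1b (0.867). Ngfr was most like Lum (0.751), Ppic (0.709) and Rpp25l (0.692), of which Lum is a fibroblast transcript. Of the 12 marker lists, the summed astrocyte list had the highest r with Ntrk3 in the anterior (0.636, n = 16) and with Ntrk2 and Ntrk3 in the posterior libraries (0.674 and 0.659, n = 19). With Ntrk2 in the anterior libraries it had 0.59, below the microglia list (0.638) and the endothelial and pericyte list (0.603).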

How the data were processed

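The deposited values are unnormalized read counts of 1 library over Ensembl genes, which the authors obtained from single reads of 72 bases with bcl2fastq, Trimmomatic 0.38, HISAT2 2.1.0 on GRCm38, SAMtools 1.8 and HTSeq 0.11.2. The annotation release and the strand setting are not given in the sources used here. HTSeq's rows for unassigned reads (no feature: 13.68% to 26.43%) were left out of library sizes.

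Each comparison was fitted on all genes with at least 10 counts in total, with edgeR 4.0.16 (R 4.3.3), TMM scaling and the quasi-likelihood F test. Benjamini-Hochberg adjusted p-values had a threshold of 0.05, and the SE is the log2 fold change divided by the square root of F. Portions were compared in each strain, blocked by mouse. Strains and housings were compared within the other factors and, with a term for the other factor, within each portion, and interactions were tested as terms. The mouse numbers of the labels pair the portions. The deviations of a mouse's 2 libraries from the mean of each group had a median r of 0.048 across genes (16 mice, -0.105 to 0.222). P-values rest on the spread between mice, some of which shared a cage. The test was checked on simulated counts.

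Lengths and positions came from GENCODE M21 and promoters from RefSeq. The members, the pathway and marker lists and the comparisons were chosen with earlier results of these data known. Some genes of these lists are not reported here. Of the pathway lists, the rule named the 2 higher and 2 lower genes with the smallest p per comparison, and the other genes of the lists were named after their values were seen. For each member with a mean of at least 1 CPM, the 3 genes with the highest Pearson's r of log2 CPM (prior count 2) were named.

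Alternatives were DESeq2 1.42.0, its size factors in edgeR, filterByExpr or no filter, no mouse block, all libraries unpaired, 1 fit of the 4 groups of a portion, the title number as a covariate in B6D2F1N, another transcript length, and each mouse left out. The fits without the mice of both anterior libraries low in Rspo2, or of both posterior libraries highest in Ttr, were chosen after seeing the data.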

Additional observations from a re-analysis of the deposited data

Results flagged for a closer look

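Of 41 groups of 4 to 6 libraries examined (a member in a strain, housing and portion), 7 had a library far from the others by Dixon's criterion, which chance alone would give in about 1 of 20 groups. Bdnf was high in the anterior library of the C57BL/6J standard mouse 4, at 482 CPM (8374 counts) against 267 to 291 CPM in the other 3. It was low in that of the B6D2F1N standard mouse 3, at 81.7 CPM against 291 to 314 CPM in the other 4. The latter is 1 of the 2 anterior libraries low in Rspo2.

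Ntf5 stood out in 3 groups at few counts. The values were 1.79 CPM (39 counts) in the anterior and 0.619 CPM (13 counts) in the posterior library of the B6D2F1N enriched mouse 3, and 0.181 CPM (5 counts) in the posterior library of the B6D2F1N standard mouse 3. In the B6D2F1N standard posterior group 4 of the 5 libraries had 0 counts, so that a single library with any counts is always flagged. The enriched mouse 3 thus had the highest Ntf5 level in each of its 2 groups.

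Ntrk2 was high in the anterior library of the B6D2F1N standard mouse 1, at 810 CPM against at most 615 CPM in its group. That mouse is the one without Xist counts. Ntrk3 was high in the anterior library of the B6D2F1N enriched mouse 4, at 353 CPM against at most 187 CPM.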

How the results depend on the processing

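Of 368 recomputed values of the members named in the text, 1 changed sign. It was the housing difference of Ntf3 in the C57BL/6J anterior portion, not past the threshold, whose log2 fold change of -0.52 was 0.09 without the standard mouse 2 (-0.72 to 0.09 with each mouse left out). The calls of Bdnf between the portions held in every alternative run. That of Ntf3 in C57BL/6J, 1.82 to 2.39 with each mouse left out, was lost without the standard mouse 4 or the enriched mouse 1, so that 1 to 2 members were called there. DESeq2 called 1 member, Ntf3, where edgeR called 0, in the strain comparison of the enriched posterior portion (-1.77), in the housing comparison of B6D2F1N posterior (-2.10) and in the posterior strain by housing interaction (-3.14). The causes were not tested.

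Without the mouse as a block, Bdnf and Ntf3 kept their calls, and 706 genes were called in C57BL/6J and 1172 in B6D2F1N (937 and 1110 with it). Over all libraries with no mouse term, 745 and 1440 were called. The pathway calls were 10 and 13 without the block (12 and 14 with it).

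Counts over all genes moved more. In the order of the text, DESeq2 called 1535 and 1994 genes between the portions, 254, 392, 137 and 342 in the strain comparisons (90, 94, 15 and 101 in edgeR), 319 for housing in C57BL/6J posterior (4) and 358 and 532 between the strains over both housings (162 and 239). With no filter on low counts, 1405 genes were called between the portions in C57BL/6J, 57 between the strains in the enriched anterior portion, 274 and 112 for housing in C57BL/6J anterior and posterior, 2 for portion by strain and 4 for portion by housing. With 1 fit of the 4 groups, 44 were called between the strains in the enriched anterior portion and 0 for housing in C57BL/6J posterior, and filterByExpr called 1 for housing over strains in the posterior portion.

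With each mouse left out, 602 to 1070 and 770 to 1220 genes were called between the portions, and 60 to 83, 59 to 166, 1 to 15 and 68 to 86 between the strains. The 59 came without the C57BL/6J standard mouse 4, the 166 without the B6D2F1N standard mouse 1, the one without Xist counts, and the 1 without the C57BL/6J enriched mouse 1. For housing in C57BL/6J posterior the count was 172 without the enriched mouse 3 and 0 without any other. The B6D2F1N standard mouse 1 also gave the highest counts for housing in B6D2F1N posterior (10), portion by housing (4) and posterior strain by housing (14), each 0 with it. The pathway calls ranged from 8 to 16 and 12 to 16 between the portions, and from 0 to 1 between the strains in the enriched posterior portion (2 with all mice). Ntf5, with at most 39 counts in a library, allowed no fold, and the SEs of Ngfr were wide.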

Other observations

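The genes that ran most against Bdnf over the 35 libraries, chosen after their values were seen, were Prlr (Pearson's r -0.856), Col6a1 (-0.851) and Cldn2 (-0.851). Prlr is on the choroid plexus list, and Cldn2 is a tight junction gene of that epithelium. Those most against Ntrk2 were Vps29 (-0.805), Ppia (-0.795) and Mrps33 (-0.792). Those most against Ntrk3 were Prdx1 (-0.819), Eef1a1 (-0.8) and Rpl10 (-0.795), housekeeping transcripts with means of 192, 485 and 57.7 CPM.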
